A study of Homo sapiens with 24 samples.

Results

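The genes described here are the nuclear-encoded subunits of the 5 oxidative phosphorylation complexes, together with the mobile carrier cytochrome c. They were chosen by symbol alone: probes named as complex I subunits (NDUFA, NDUFB, NDUFC, NDUFS and NDUFV genes), succinate dehydrogenase subunits (SDH genes), UQCR genes and CYC1 of complex III, CYCS, COX4 to COX8 genes of complex IV, and ATP5 genes of complex V. Assembly factors and pseudogenes were left out. The rule found 111 probes for 83 genes, of which 98 probes for 76 genes were detected, out of 10246 genes tested. The detected genes were 34 of 35 for complex I, 3 of 3 for complex II, 9 of 9 for complex III, 11 of 17 for complex IV, 18 of 18 for complex V, and CYCS. The 7 genes that were not detected in any group were NDUFB4, COX4I2, COX6A2, COX6B2, COX7A1, COX7B2 and COX8C. These counts are of genes for which the rule found a probe, and do not cover every subunit. No probe was found for SDHB of complex II or UQCRFS1 of complex III, for example.

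The arrays came from P493, a human B cell line carrying a MYC transgene that tetracycline (TET) represses, so that removing TET releases MYC. One arm received MST-312, a telomerase inhibitor, with TET for 48 h, and was then moved to fresh medium without TET but with MST-312 for 0, 4, 8 or 24 h. The other arm is labelled as having no treatment at the same 4 times, is called untreated below, and the sources used here do not give its TET schedule. The word release below refers to the labelled times of both arms, and for untreated cells a removal of TET is not documented. Each of the 8 groups has 3 Illumina beadchip arrays, 24 in all; whether the numbered replicates were separate cultures is not stated, so the p-values may measure technical spread only. All cells are of 1 line, and no second line or second inhibitor was analysed here.

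Oxidative phosphorylation passes electrons from NADH, through complex I, or from succinate, through complex II, to ubiquinone, then through complex III and cytochrome c to complex IV, where oxygen is reduced. Complexes I, III and IV pump protons across the inner mitochondrial membrane, and complex V uses the gradient to make ATP. MYC is known to raise the expression of many nuclear genes for mitochondrial proteins in proliferating B cells.

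Values are log2 intensities after background correction and quantile normalisation, and a change is a difference between group means on that log2 scale. A gene is said to have risen or fallen only where the adjusted p of the limma fit over all genes was below 0.05. Each array had between 16254 and 17959 probes detected. Of 7 B cell marker genes on the array, 5 were detected (MS4A1, CD79A, CD79B, CD22 and CD74) and 2 were not (CR2 and PAX5). The MYC probe lay at 14.18, 13.98 and 14.01 on the untreated 0 h arrays and at 13.88, 13.84 and 13.77 on the MST-312 0 h arrays, and every later array, from 14.57 upwards, was above them. MYC was higher with MST-312 at 24 h, by 0.38 (limma adjusted p = 0.00334), and did not pass between treatments at 0, 4 or 8 h. Its change from 0 to 24 h was larger with MST-312, by 0.60 (limma adjusted p = 0.00355). The part of MYC in the changes of the subunit genes was not tested. These are bulk samples, so fewer cells of a type and less RNA per cell cannot be told apart.

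Under MST-312 the mean over the subunit genes of each of complexes I to V was lower on every array than on every untreated array of the same time, at all 4 times. For complex I, the mean relative to the untreated 0 h group was -0.343, -0.274 and -0.373 on the MST-312 arrays at 0 h and 0.0135, -0.0575 and 0.00567 at 24 h. On the untreated arrays it was 0.0244, 0.0648 and -0.0892 at 0 h and 0.450, 0.395 and 0.40 at 24 h. The MST-312 arrays at 24 h thus lay within the range of the untreated arrays at 0 h. For complex V the mean was -0.274, -0.232 and -0.275 with MST-312 at 0 h and 0.151, 0.0238 and 0.00760 at 24 h, against 0.626, 0.528 and 0.502 in untreated cells at 24 h. Complexes III and IV had the same form, with untreated means of 0.540 ± 0.0318 and 0.365 ± 0.0695 (SD, n = 3) at 24 h against 0.00299 ± 0.0590 and 0.0117 ± 0.0626 with MST-312. At 0 h the lower mean of complex III rested on part of its genes, as 3 were lower and 2 higher. Its median change then was -0.01, and UQCRC2 had the largest fall, -1.77. Complex II, with 3 genes, stood at -0.235 ± 0.106 with MST-312 at 24 h, still below every untreated 0 h array. Cytochrome c did not share the pattern: its mean was 0.557 ± 0.0877 above the untreated 0 h group with MST-312 at 0 h, and both treatments reached 1.68 ± 0.0369 and 1.67 ± 0.0989 at 24 h. No p-value is given for these means over genes, which are descriptions.

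**Figure D1:**
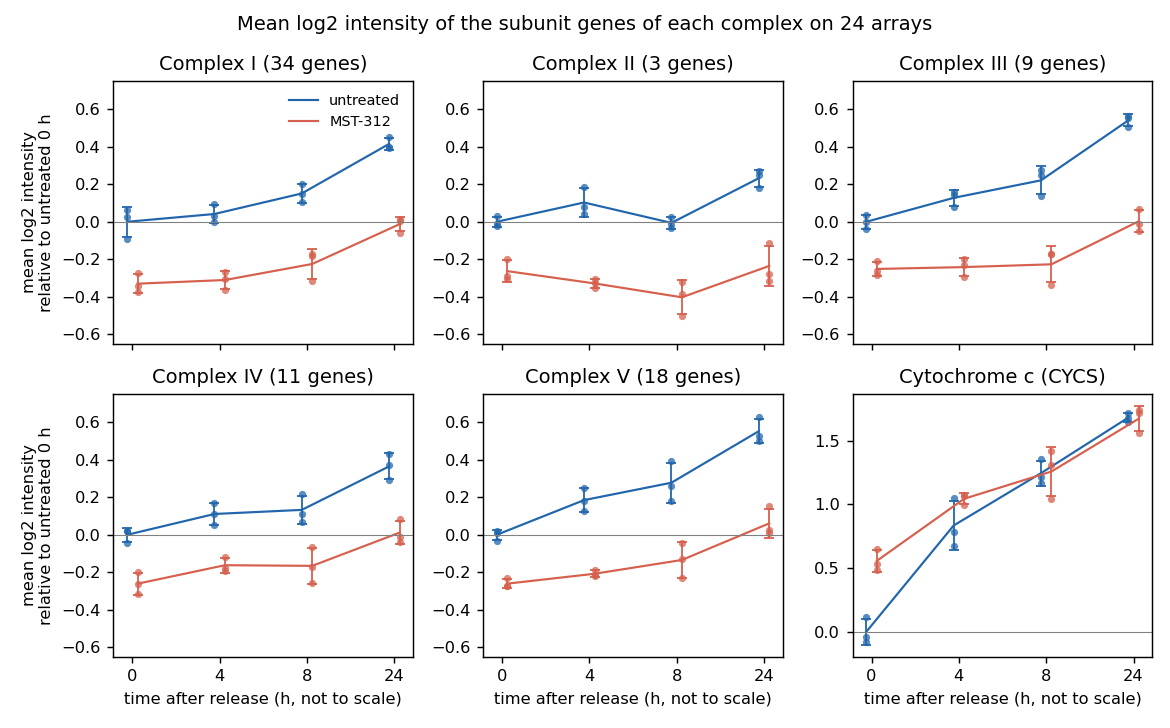
Mean log2 intensity over the subunit genes of each complex, relative to the untreated 0 h group, against release time in hours; points are arrays, lines join group means and bars are the SD (n = 3). The MST-312 points lie below the untreated points at every time for complexes I to V, and the curves for cytochrome c meet by 24 h.

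Gene by gene, 40 of the 76 subunit genes were lower and 7 higher with MST-312 than in untreated cells at 0 h, with a median change of -0.27. Among all genes tested at 0 h, 31.7% were lower and 27.6% higher, with a median of -0.02. At 4 h, 46 were lower and 3 higher, against 32.9% and 26.5% of all genes. At 8 h the counts were 47 and 3, against 32.2% and 25.6%. At 24 h, 53 were lower and 1 higher, with a median of -0.40, against 32.9% and 28.9% of all genes and a median of -0.03. The all-gene shares called in either direction were 59.3%, 59.4%, 57.7% and 61.8% at the 4 times, so a call by itself is common in these data; what differed from the background was the split of directions.

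The complexes differed in how even the changes were. At 24 h, 23 of 34 complex I genes, 2 of 3 complex II genes, 5 of 9 complex III genes, 8 of 11 complex IV genes and 15 of 18 complex V genes were lower. At 0 h the lower counts were 20, 2, 3, 7 and 8 in the same order. Complex III showed no common direction at 0 h: 3 of its 9 genes were lower (33.3%, against 31.7% of all genes) and 2 higher, with a median of -0.01. Complex V therefore had 7 more lower genes at 24 h than at 0 h, while complexes I and IV had 3 and 1 more; the difference between complexes in these counts was not tested. Over all 4 times, 35 genes were lower at each time (17 in complex I, 2 in II, 3 in III, 5 in IV and 8 in V), and 8 passed at no time (NDUFB8, NDUFB9, NDUFC2, NDUFS8, UQCRC1, COX4I1, ATP5MC2 and ATP5PF). The matching shares of all genes tested are not given, so neither count is read as particular to the subunits. With same-numbered arrays paired within each time, the calls numbered 49, 53, 56 and 59 in place of 47, 49, 50 and 54, and none was lost. Beside genes described below, pairing added as lower COX5A at 0 and 8 h, NDUFC1 at 4 and 8 h, ATP5F1A at 4 h, ATP5ME and NDUFB2 at 8 h, and NDUFA8, NDUFS4 and COX6B1 at 24 h, and NDUFB8 as higher at 8 h, with adjusted p from 0.0252 for ATP5F1A to 0.0498 for NDUFS4. The 8 genes that were higher at 1 or more times were NDUFS1, NDUFS6, UQCR10, UQCR11, CYC1, CYCS, COX7A2L and ATP5F1E, of which NDUFS6 was below detection in both treatments at 0 h. Scaling the arrays by their medians in place of quantiles moved the median of all genes to between -0.14 and -0.29 in these 4 comparisons. Lower calls among the subunits then numbered 47, 58, 62 and 64, and higher calls 4, 0, 1 and 1. The all-gene shares under this scaling are not given, so the larger lower counts cannot be told from that shift of all genes.

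**Figure D2:**
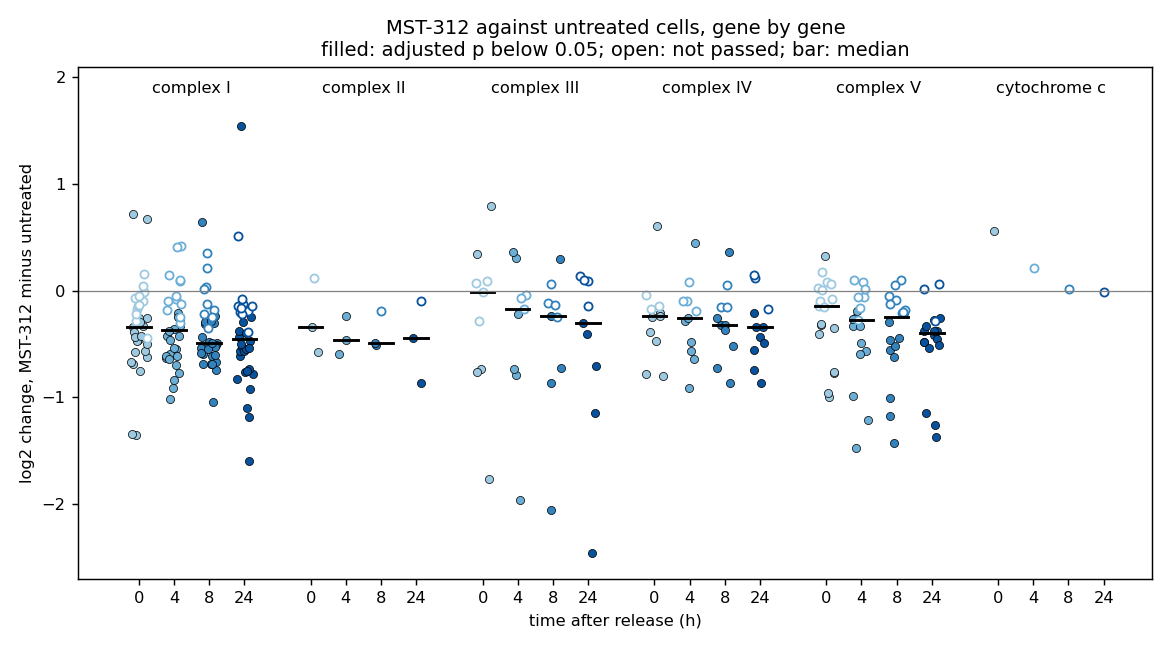
Log2 change of each subunit gene, MST-312 minus untreated, at 0, 4, 8 and 24 h, by complex; filled points have an adjusted p below 0.05 and bars are medians. Most points lie below 0 in every complex, with UQCRC2 lowest at each time and NDUFS6 highest at 24 h.

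The promoters of 5 of the genes described next are shown because each had the largest fall of its complex: of complex III at each time (UQCRC2), of complex I at 24 h (NDUFV1), of complex IV at 24 h (COX5B), of complex V at 24 h (ATP5PD) and of complex II at 24 h (SDHA). Each is the 250 bases before the annotated start, read 5′ to 3′ on the gene's strand, from RefSeq (GRCh38.p14): chr16:21953111-21953360 (+), chr11:67606686-67606935 (+), chr2:97645812-97646061 (+), chr17:75046970-75047219 (−) and chr5:218070-218319 (+). Capitals mark matches, on either strand, to the NRF1 motif (its GC-rich palindrome with 1 free base), CCGGAAG (ETS factors), AAGATGGC (YY1), CACGTG (the E-box bound by MYC) and GGGCGG (GC box).
UQCRC2: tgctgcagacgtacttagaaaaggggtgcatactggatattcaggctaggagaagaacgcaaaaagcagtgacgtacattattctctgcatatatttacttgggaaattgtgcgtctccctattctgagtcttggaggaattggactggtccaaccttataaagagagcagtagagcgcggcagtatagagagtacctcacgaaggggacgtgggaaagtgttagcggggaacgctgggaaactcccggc
NDUFV1: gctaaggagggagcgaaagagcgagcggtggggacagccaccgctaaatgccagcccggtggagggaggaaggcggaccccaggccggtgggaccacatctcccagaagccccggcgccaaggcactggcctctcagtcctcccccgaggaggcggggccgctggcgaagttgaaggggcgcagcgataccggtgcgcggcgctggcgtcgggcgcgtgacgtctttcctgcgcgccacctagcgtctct
COX5B: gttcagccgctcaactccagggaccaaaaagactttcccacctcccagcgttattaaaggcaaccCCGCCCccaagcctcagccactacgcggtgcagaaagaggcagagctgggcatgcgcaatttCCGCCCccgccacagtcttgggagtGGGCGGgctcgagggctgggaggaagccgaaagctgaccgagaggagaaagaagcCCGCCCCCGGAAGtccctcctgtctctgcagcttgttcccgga
ATP5PD: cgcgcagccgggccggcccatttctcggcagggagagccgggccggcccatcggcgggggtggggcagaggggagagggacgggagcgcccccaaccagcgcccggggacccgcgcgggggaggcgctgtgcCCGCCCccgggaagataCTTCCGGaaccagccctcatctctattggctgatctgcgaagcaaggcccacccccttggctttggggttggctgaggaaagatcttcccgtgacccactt
SDHA: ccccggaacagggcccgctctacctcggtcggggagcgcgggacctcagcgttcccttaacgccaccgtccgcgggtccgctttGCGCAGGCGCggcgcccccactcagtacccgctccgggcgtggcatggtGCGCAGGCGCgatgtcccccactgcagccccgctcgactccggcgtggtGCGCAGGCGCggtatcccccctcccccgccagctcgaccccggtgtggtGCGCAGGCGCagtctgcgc
SDHA holds 4 NRF1 matches, COX5B 1 ETS match and 4 GC boxes, and ATP5PD 1 of each. UQCRC2 and NDUFV1 hold none of the 5 motifs in this window, which says only that these letters are not there. Promoters were found for 63 of the 76 genes. The counts that follow cover the whole promoter sequence, which runs past the start and so is longer than the window printed above. The NRF1 letters were in 14 of the 63 (22.2%), against 6.28% of all 27305 promoters and 12.7% of the 8244 promoters of genes tested here. The ETS letters were in 19 (30.2%, against 10.7% and 20.7%), the YY1 letters in 10 (15.9%, against 3.03% and 5.90%), the E-box in 7 (11.1%, against 7.43% and 10.7%) and the GC box in 39 (61.9%, against 44.6% and 69.1%). The E-box share was thus close to that of all genes tested. Of the 7 genes with an E-box, 6 were lower with MST-312 at 24 h, as were 37 of the 56 without one; for NRF1 the counts were 9 of 14 and 34 of 49, and for ETS 12 of 19 and 31 of 44. No test was made on these counts.

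Complex I, the NADH dehydrogenase at the entry of the chain, has core subunits that carry flavin and iron-sulphur centres and many accessory subunits. Of the 6 core subunits of the matrix arm measured, NDUFV1, NDUFV2, NDUFS3 and NDUFS7 were lower with MST-312 at each of the 4 times. The other core subunits, NDUFS1 and NDUFS8, were not lower at any. Of the 28 accessory subunits, 16 were lower at 0 h and 19 at 24 h, when 31.7% and 32.9% of all genes tested were lower.

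NDUFV1, which holds the FMN that accepts electrons from NADH, read 10.46, 10.44 and 10.40 on the untreated arrays at 0 h and 9.11, 9.20 and 8.96 with MST-312. At 24 h it read 11.01, 10.89 and 10.90 and 9.21, 9.43 and 9.36. At 4 and 8 h the untreated arrays spanned 10.15 to 10.59 and the MST-312 arrays 9.25 to 9.54. Every MST-312 array of NDUFV1 was below every untreated array. The change was -1.35 (SE 0.0955, limma adjusted p = 1.99e-10) at 0 h, -1.01 (adjusted p = 1.33e-08) at 4 h, -1.05 (adjusted p = 9.99e-09) at 8 h and -1.60 (SE 0.0955, limma adjusted p = 1.17e-11) at 24 h. After release NDUFV1 rose by 0.50 in untreated cells at 24 h (limma adjusted p = 0.000144) and by 0.24 with MST-312 (adjusted p = 0.0385); the latter was lost, with an adjusted p up to 0.174, when any of 4 arrays was left out, under cyclic loess (0.136), without the filter on dim probes (0.0618) and in a fit of only the arrays compared (0.0994). NDUFV2, its partner in the same module, fell by 0.43 at 0 h and 0.54 at 24 h (adjusted p = 0.00351 and 0.000416).

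NDUFA13, also known as GRIM-19, an accessory subunit, had the largest fall in complex I at 0 h. It read 11.23, 11.46 and 11.26 untreated and 9.81, 10.17 and 9.90 with MST-312, groups that did not overlap. The change was -1.36 (SE 0.112, limma adjusted p = 1.78e-09) at 0 h and -0.76 (SE 0.112, limma adjusted p = 5.86e-06) at 24 h, when the arrays read 11.36, 11.17 and 11.04 and 10.43, 10.42 and 10.44. NDUFA13 rose by 0.47 from 0 to 24 h with MST-312 (adjusted p = 0.00138), while its untreated change was -0.13 (adjusted p = 0.343). The difference between those changes, called the interaction below, passed at 4, 8 and 24 h, at 0.44, 0.62 and 0.60 (adjusted p = 0.0489, 0.00854 and 0.00689). It was thus a gene whose deficit at 0 h was larger than at 24 h.

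NDUFA10 and NDUFV3, both accessory subunits, went the other way. NDUFA10 read 9.72, 9.67 and 9.91 untreated and 9.52, 9.48 and 9.53 with MST-312 at 0 h, and 10.54, 10.32 and 10.32 and 9.35, 9.39 and 9.13 at 24 h. The groups did not overlap at either time, and the gap was wider at 24 h. The change was -0.25 (SE 0.0872, limma adjusted p = 0.0165) at 0 h, with an adjusted p of 0.101 without the third untreated array, and -1.10 (SE 0.0872, limma adjusted p = 9.05e-10) at 24 h, and a second probe gave -1.44 at 24 h. NDUFA10 rose by 0.62 in untreated cells and fell by 0.22 with MST-312 over 24 h (adjusted p = 3.25e-06 and 0.0392), with an interaction of -0.85 (SE 0.123, limma adjusted p = 2.82e-05). The fall with MST-312 had a limma adjusted p of 0.0516 over all probes, and the second probe gave -0.02 (0.904), so that fall is uncertain. NDUFV3 read 7.03, 6.45 and 6.17 untreated and 6.57, 6.995 and 6.56 with MST-312 at 0 h, where the groups overlapped. At 24 h it read 7.33, 7.01 and 7.08 and 6.25, 6.03 and 5.597, with no overlap and 1 of the MST-312 arrays below detection. Its change at 24 h was -1.18 (SE 0.199, limma adjusted p = 3.02e-05) and its interaction, the largest fall of any subunit, -1.34 (SE 0.281, limma adjusted p = 0.00119). The fall of NDUFV3 over 24 h with MST-312 was -0.75 (adjusted p = 0.00346), and its untreated rise, 0.59 (adjusted p = 0.0149), was lost when any of 3 arrays was left out (adjusted p up to 0.109).

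NDUFS6, a zinc-binding subunit that joins late in assembly, had the largest change upwards at 24 h. It read 4.84, 4.80 and 4.74 untreated and 5.73, 5.33 and 5.46 with MST-312 at 0 h, and 4.82, 4.83 and 5.09 and 6.15, 6.23 and 6.998 at 24 h. The MST-312 readings were above the untreated ones at both times, with 1 of them well above the other two at 24 h. The probe was detected on all 3 MST-312 arrays at 24 h, on 1 of 3 at 8 h and on no array of the other 6 groups, so the level with MST-312 at 24 h was at least 1.51-fold that of untreated cells (limma adjusted p = 6.35e-07 for a fitted change of 1.54) and at least 1.5-fold its own level at 0 h. At 0 and 4 h it was below detection in both treatments, and no fold is given; the fit there gave 0.00308 and 0.075 as adjusted p, the latter 0.0372 with same-numbered arrays paired within each time. At 8 h the adjusted p was 0.00709, and 0.0710 without the first MST-312 array, the one on which it was detected. The interaction at 24 h, 0.83 (adjusted p = 0.0257), rests on those undetected groups and was lost when any of 4 arrays was left out and under 3 other settings (up to 0.233). NDUFS1, the largest core subunit, also stood higher, at 0.67 (adjusted p = 0.0254) at 0 h, with overlapping groups, and 0.51 (adjusted p = 0.0828) at 24 h (0.0324 paired within each time). The 0 h rise of NDUFS1 was lost without the third untreated array or without either the first or the second MST-312 array.

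NDUFS5, an accessory subunit of the membrane arm, kept about the same distance between the treatments while rising in both. It read 12.07, 12.32 and 12.15 at 0 h and 13.17, 13.07 and 13.04 at 24 h in untreated cells. With MST-312 it read 11.62, 11.74 and 11.47 and 12.67, 12.58 and 12.55. The rise over 24 h was 0.91 (SE 0.0994, limma adjusted p = 1.1e-07) untreated and 0.99 (adjusted p = 5.85e-08) with MST-312. The change with MST-312 was -0.57, -0.61, -0.55 and -0.50 at the 4 times, each past the threshold, and the interaction at 24 h was 0.08 (adjusted p = 0.737), with a 95% interval of -0.218 to 0.369. Among the other accessory subunits, the range of the changes at 24 h ran from -0.92 for NDUFA11 to -0.08 for NDUFB9. NDUFB3, with an interaction of -0.41 (adjusted p = 0.00549), and NDUFA12, with 0.41 (adjusted p = 0.0184), completed the 6 complex I genes whose 24 h change since release differed between the treatments.

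Complex II, succinate dehydrogenase, joins the citric acid cycle to the chain and is the complex in which no proton is pumped. SDHA, its flavoprotein, read 10.11, 10.06 and 10.04 untreated and 9.65, 9.81 and 9.74 with MST-312 at 0 h. At 24 h SDHA read 10.09, 10.03 and 10.07 and 9.20, 9.19 and 9.21. The intermediate untreated arrays spanned 9.70 to 9.96 and the MST-312 arrays 9.19 to 9.62. SDHA was lower with MST-312 on every array at every time, and the distance grew: -0.34 (SE 0.0765, limma adjusted p = 0.000754) at 0 h, -0.46 (adjusted p = 2.59e-05) at 4 h, -0.51 (adjusted p = 8.29e-06) at 8 h and -0.86 (SE 0.0765, limma adjusted p = 5.17e-09) at 24 h. The interaction at 24 h was -0.53 (SE 0.108, limma adjusted p = 0.000994). In untreated cells SDHA was lower at 8 h than at 0 h, -0.31 (adjusted p = 0.00225), and at 24 h its difference from 0 h was -0.01 (adjusted p = 0.943). With MST-312 it fell at 4, 8 and 24 h, by 0.28, 0.48 and 0.53 (adjusted p = 0.00698, 3.91e-05 and 6.88e-06).

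SDHC and SDHD anchor the enzyme in the membrane. SDHC read 9.82, 9.996 and 9.80 untreated and 9.28, 9.43 and 9.20 with MST-312 at 0 h, and 10.21, 9.91 and 10.05 and 9.57, 9.42 and 9.85 at 24 h, with no overlap at either time. At 4 h it read 10.39, 9.83 and 10.10 and 9.50, 9.58 and 9.46, and at 8 h 10.06, 9.77 and 10.01 and 9.48, 9.63 and 9.27. The change was -0.57 (SE 0.136, limma adjusted p = 0.00112), -0.59 (adjusted p = 0.000825), -0.49 (adjusted p = 0.00441) and -0.44 (adjusted p = 0.00784) at 0, 4, 8 and 24 h. Without the second MST-312 array at 24 h, the last had an adjusted p of 0.0517, and a second SDHC probe gave -0.11 at 24 h (adjusted p = 0.415 over all probes). SDHD read 10.53, 10.38 and 10.74 untreated and 10.65, 10.67 and 10.69 with MST-312 at 0 h, and 10.99, 11.09 and 11.11 and 10.89, 10.93 and 11.09 at 24 h. These groups overlapped at 0 h and at 24 h. At 4 h SDHD was lower, at -0.24 (SE 0.094, limma adjusted p = 0.036), a call lost when any of 3 arrays was left out (up to 0.154), without the filter on dim probes (0.0569) and in a fit of only the arrays compared (0.0767), and at 8 h its change was -0.19 (adjusted p = 0.0928), or 0.0438 paired within each time. SDHD rose over 24 h in both treatments, by 0.52 untreated and 0.30 with MST-312 (adjusted p = 7.58e-05 and 0.0112), the latter with 0.0635 without the third MST-312 array.

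Complex III, which oxidises ubiquinol and reduces cytochrome c, held the largest fall at each time. UQCRC2, 1 of its pair of core proteins, read 10.41, 10.27 and 10.40 untreated and 8.56, 8.49 and 8.74 with MST-312 at 0 h. At 4 h it read 10.21, 10.18 and 10.46 and 8.29, 8.23 and 8.43, and at 8 h 10.24, 10.28 and 10.40 and 8.22, 7.96 and 8.58. At 24 h it read 10.35, 10.48 and 10.56 and 7.74, 8.08 and 8.17. No MST-312 array came near an untreated one at any time. The change of UQCRC2 was -1.77 (SE 0.134, limma adjusted p = 5.33e-10), -1.96 (adjusted p = 1.15e-10), -2.05 (adjusted p = 6.79e-11) and -2.46 (SE 0.134, limma adjusted p = 2.89e-12) at the 4 times. UQCRC2 fell by 0.60 over 24 h with MST-312 (adjusted p = 0.000853), its untreated change was 0.10 (adjusted p = 0.56), and the interaction was -0.69 (SE 0.189, limma adjusted p = 0.00869). UQCRC1, the other core protein, passed at no time: its change was -0.29 (adjusted p = 0.0769) at 0 h, or 0.0343 paired within each time, and 0.10 (adjusted p = 0.561) at 24 h. It rose by 0.55 over 24 h with MST-312 (adjusted p = 0.00176).

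UQCRB and UQCRQ, small accessory subunits, were lower at each time. UQCRB read 10.22, 10.30 and 10.40 untreated and 9.51, 9.67 and 9.53 with MST-312 at 0 h, and 11.22, 11.29 and 11.25 and 10.52, 10.56 and 10.56 at 24 h. It rose in both treatments, by 0.95 and 0.97 (adjusted p = 1.48e-09 and 1.89e-09), and the distance between them stayed between -0.79 and -0.71. UQCRQ went from -0.77 at 0 h to -1.15 at 24 h, with an interaction of -0.38 (adjusted p = 0.0105). UQCRH, the hinge protein between cytochrome c and cytochrome c1, read 13.83, 13.87 and 13.78 untreated and 13.87, 13.95 and 13.88 with MST-312 at 0 h, and 14.34, 14.18 and 14.19 and 13.93, 13.79 and 13.77 at 24 h. It was not lower at 0 h, 0.07 (adjusted p = 0.446), but was at 24 h, -0.40 (SE 0.0786, limma adjusted p = 0.000158), with an interaction of -0.48 (adjusted p = 0.00287). UQCRHL, a near-identical copy whose transcripts the probes may not tell from those of UQCRH, changed by -0.31 at 24 h (adjusted p = 0.00117). All counts and means of complex III hold UQCRH and UQCRHL as separate genes, though their signals may not be separate.

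UQCR11 and UQCR10, small subunits of complex III, were higher with MST-312 at 0 h. UQCR11 read 6.23, 6.52 and 6.28 untreated and 7.05, 7.19 and 7.18 with MST-312, so every MST-312 array was above the untreated ones. From 4 h on, the untreated arrays, at 7.01 to 7.63, and the MST-312 arrays, at 6.98 to 7.75, overlapped. The change with MST-312 was 0.80 (SE 0.152, limma adjusted p = 0.00013) at 0 h and 0.09 (adjusted p = 0.619) at 24 h. UQCR11 rose in untreated cells by 0.96 within 4 h and by 0.93 at 24 h (adjusted p = 2.87e-05 and 2.29e-05); with MST-312 its 24 h change was 0.23 (adjusted p = 0.228). The interaction was -0.97 (adjusted p = 0.00259) at 4 h, -0.92 (adjusted p = 0.00465) at 8 h and -0.70 (adjusted p = 0.0173) at 24 h, the last with 0.0529 without the third MST-312 array at 24 h. UQCR10 rose with MST-312 by 0.34, 0.36 and 0.30 at 0, 4 and 8 h (adjusted p = 0.00683, 0.00457 and 0.017), but its 2 other probes did not pass at these times, with changes from -0.24 to 0.10, and were higher at 24 h instead (0.45 and 0.56, adjusted p = 0.00333 and 0.00108 over all probes). The rise of UQCR10 therefore depends on the probe, and its direction is uncertain.

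CYC1, the cytochrome c1 that hands electrons to cytochrome c, read 11.29, 11.32 and 11.11 untreated and 11.25, 11.30 and 11.15 with MST-312 at 0 h. At 4 h it read 11.31, 11.34 and 11.19 and 11.58, 11.61 and 11.55, and at 8 h 11.55, 11.34 and 11.48 and 11.74, 11.25 and 11.57. At 24 h it read 12.01, 11.91 and 11.76 and 11.88, 11.77 and 11.60. The groups separated only at 4 h among the 4 times, when MST-312 was higher by 0.30 (SE 0.109, limma adjusted p = 0.0216). Under median scaling that value turned to -0.0119 (adjusted p = 0.951), and the call was lost without the third untreated array (0.0828) or the second MST-312 array (0.0567). CYC1 rose over 24 h in both treatments, by 0.65 and 0.52 (adjusted p = 3.2e-05 and 0.000457).

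CYCS, cytochrome c itself, a soluble carrier that also takes part in apoptosis, had the largest rise over 24 h of any member in untreated cells. CYCS read 7.28, 7.08 and 7.12 untreated and 7.64, 7.70 and 7.81 with MST-312 at 0 h. At 4 h it read 8.21, 7.83 and 7.94 and 8.22, 8.16 and 8.23, and at 8 h 8.51, 8.38 and 8.33 and 8.58, 8.20 and 8.47. At 24 h it read 8.81, 8.88 and 8.84 and 8.88, 8.90 and 8.72. The MST-312 arrays were above the untreated ones at 0 h and overlapped with them at each later time. The change was 0.56 (SE 0.103, limma adjusted p = 8.98e-05) at 0 h, 0.21 (adjusted p = 0.0852) at 4 h, or 0.0461 paired within each time, and -0.01 (adjusted p = 0.948) at 24 h. CYCS rose by 0.83, 1.25 and 1.68 at 4, 8 and 24 h untreated (adjusted p = 1.29e-06, 3.43e-09 and 2.28e-11). With MST-312 it rose by 0.49, 0.70 and 1.12 (adjusted p = 0.000835, 1.47e-05 and 1.69e-08). The interaction was -0.54 (adjusted p = 0.0111) at 8 h and -0.57 (SE 0.145, limma adjusted p = 0.00571) at 24 h.

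**Figure D3:**
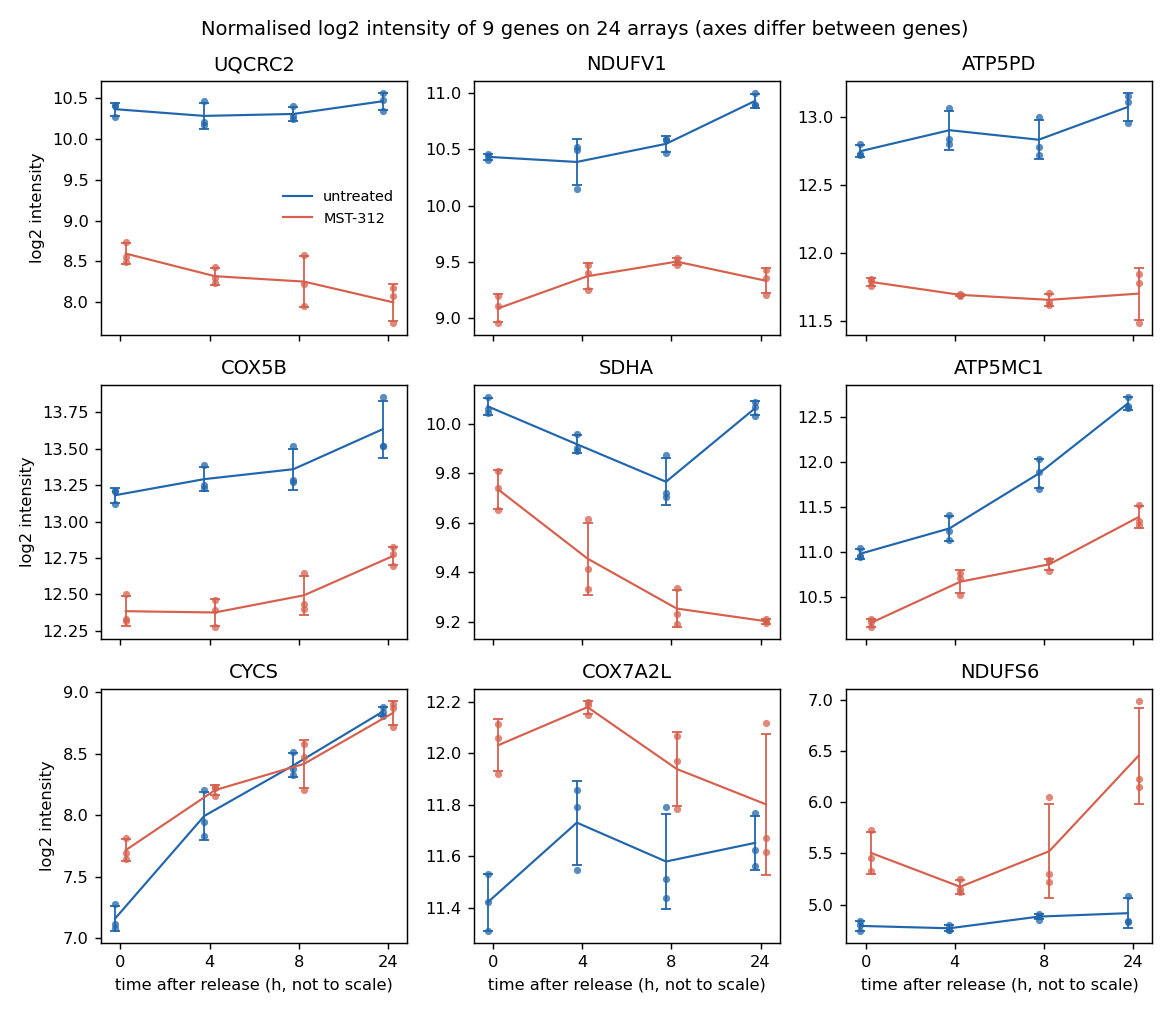
Log2 intensity of 9 genes by release time in hours; points are arrays, lines join group means and bars are the SD (n = 3), and the vertical axes differ between panels. UQCRC2, NDUFV1 and ATP5PD stay apart between treatments at all times, while CYCS and COX7A2L start higher with MST-312 and overlap with untreated cells at 24 h.

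Complex IV, cytochrome c oxidase, had no gene among its 11 that passed the interaction at 24 h in the main fit. Its fitted interactions ran from -0.46 to 0.18, with a median of -0.09, against -0.10 in complex I. COX5B, a zinc-binding subunit, read 13.21, 13.21 and 13.12 untreated and 12.32, 12.50 and 12.33 with MST-312 at 0 h, and 13.86, 13.52 and 13.52 and 12.82, 12.70 and 12.78 at 24 h. Between them, the untreated arrays spanned 13.23 to 13.52 and the MST-312 arrays 12.27 to 12.65, and no groups overlapped. The change was -0.80 (SE 0.101, limma adjusted p = 8.42e-07), -0.92 (adjusted p = 1.23e-07), -0.87 (adjusted p = 3.11e-07) and -0.87 (adjusted p = 2.39e-07) at the 4 times. COX5B rose by 0.45 untreated and 0.38 with MST-312 over 24 h (adjusted p = 0.000614 and 0.00341), and the interaction, -0.07 (adjusted p = 0.749), had a 95% interval of -0.370 to 0.224. COX8A, a small nuclear-encoded subunit, had changes of -0.78 and -0.75 at 0 and 24 h, and COX6C of -0.47 and -0.56, each past the threshold.

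COX7B, another small subunit, had the largest rise of complex IV after release. It read 11.64, 11.43 and 11.71 at 0 h and 12.45, 12.51 and 12.67 at 24 h untreated, and 11.29, 11.26 and 11.48 and 11.94, 12.09 and 12.14 with MST-312. The rise was 0.95 (adjusted p = 1.4e-07) and 0.72 (adjusted p = 9.33e-06), with no overlap between times in either treatment. Its change with MST-312 was -0.25 (adjusted p = 0.0477) at 0 h, a call that was lost under 2 settings and without any of 14 of the 24 arrays, and -0.49 (adjusted p = 0.000452) at 24 h. COX4I1, the widely expressed form of subunit 4, passed in none of the comparisons between treatments, with -0.04 (adjusted p = 0.744) at 0 h and 0.12 (adjusted p = 0.321) at 24 h.

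COX7A2L, which is known to help join complexes III and IV into supercomplexes, was the exception in complex IV. COX7A2L read 11.53, 11.43 and 11.31 untreated and 12.06, 12.11 and 11.92 with MST-312 at 0 h. At 4 h it read 11.79, 11.86 and 11.55 and 12.19, 12.20 and 12.15, and at 24 h 11.77, 11.56 and 11.62 and 12.12, 11.67 and 11.62. It was higher with MST-312 on every array at 0 and 4 h and overlapped at 8 and 24 h. The change was 0.61 (SE 0.125, limma adjusted p = 0.000279) at 0 h, 0.45 (adjusted p = 0.0042) at 4 h, 0.36 (adjusted p = 0.0185) at 8 h and 0.15 (adjusted p = 0.313) at 24 h. Under median scaling the 4 h and 8 h changes were 0.117 and 0.0249 (adjusted p = 0.522 and 0.9), while the 0 h call stood. The 8 h call was also lost without any of 4 arrays. The interaction at 24 h was -0.46 (adjusted p = 0.0559), or 0.0180 with same-numbered arrays paired within each time.

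Complex V, the ATP synthase, has a catalytic head and central stalk, a rotating ring of c subunits, a peripheral stalk, small membrane subunits and an inhibitor. Of the 5 genes of the head and central stalk, ATP5F1A to ATP5F1E, 2 were lower with MST-312 at 0 h and all 5 at 24 h, with a median of -0.375. Of the 4 genes of the peripheral stalk, 2 were lower at 0 h and 3 at 24 h. Of the 3 genes for the c subunit, 2 were lower at both times. Of the 5 small membrane subunits, 1 was lower at 0 h and 4 were at 24 h. Among all genes tested, 31.7% were lower at 0 h and 32.9% at 24 h. These parts hold few genes, and differences between parts or times in these counts were not tested.

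ATP5PD, the d subunit of the peripheral stalk, had the largest fall of complex V at 24 h. It read 12.80, 12.72 and 12.73 untreated and 11.81, 11.76 and 11.79 with MST-312 at 0 h, and 13.11, 12.95 and 13.15 and 11.84, 11.78 and 11.48 at 24 h. At 4 and 8 h the untreated arrays spanned 12.72 to 13.07 and the MST-312 arrays 11.62 to 11.71, far apart. The change was -0.96 (SE 0.0956, limma adjusted p = 2.97e-08) at 0 h, -1.21 (adjusted p = 1.01e-09) at 4 h, -1.18 (adjusted p = 1.84e-09) at 8 h and -1.37 (SE 0.0956, limma adjusted p = 1.29e-10) at 24 h, and a second probe gave values from -1.11 to -1.45. ATP5PD rose by 0.33 untreated over 24 h (adjusted p = 0.00607), its MST-312 change was -0.09 (adjusted p = 0.483), and the interaction, -0.41 (adjusted p = 0.0262), was lost when any of 5 arrays was left out (up to 0.0825). ATP5PF, the F6 subunit of the same stalk, had a change of 0.02 (adjusted p = 0.891) at 24 h by its brightest probe and -0.57 by a second one (adjusted p = 9.23e-06 over all probes), so its direction is uncertain.

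ATP5MC1, ATP5MC2 and ATP5MC3 code for the same mature c subunit of the ring. ATP5MC1 read 10.94, 11.05 and 10.96 untreated and 10.17, 10.23 and 10.26 with MST-312 at 0 h, and 12.72, 12.62 and 12.60 and 11.34, 11.30 and 11.52 at 24 h. The groups were apart at each time, and ATP5MC1 rose steeply in both treatments, by 1.66 untreated and 1.17 with MST-312 (adjusted p = 7.59e-12 and 2.7e-09). The rise was smaller with MST-312, with an interaction of -0.49 (adjusted p = 0.00813), and the change between treatments went from -0.77 (adjusted p = 5.93e-07) at 0 h to -1.26 (SE 0.0942, limma adjusted p = 3.94e-10) at 24 h. ATP5MC3 read 6.85, 6.30 and 6.62 untreated and 5.61, 5.35 and 5.81 with MST-312 at 0 h, and 8.31, 8.05 and 8.04 and 7.10, 6.97 and 6.89 at 24 h. It was not detected with MST-312 at 0 or 4 h, where it was at least 1.65-fold and at least 2.06-fold lower (adjusted p = 0.000521 and 6.77e-06). ATP5MC3 was also lower at 24 h, at -1.15 (adjusted p = 0.00012), after a rise of 1.54 untreated and of at least 2.17-fold with MST-312. ATP5MC2 differed: with MST-312 it read 13.28, 13.38 and 13.32 at 0 h and 13.01, 12.70 and 12.70 at 24 h, a fall of 0.52 (adjusted p = 0.00123). Its change between treatments at 24 h was -0.28 (adjusted p = 0.0504), or 0.0175 paired within each time, and -1.66 by a second probe (adjusted p = 4.69e-08 over all probes).

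ATP5F1E, the epsilon subunit of the central stalk, changed sides during release. It read 11.97, 12.10 and 11.85 untreated and 12.20, 12.45 and 12.23 with MST-312 at 0 h, and 12.30, 12.07 and 12.08 and 11.94, 11.69 and 11.71 at 24 h. The MST-312 arrays were the higher ones at 0 h and the lower ones at 24 h. The change was 0.33 (SE 0.106, limma adjusted p = 0.0119) at 0 h and -0.38 (adjusted p = 0.0042) at 24 h, with an interaction of -0.70 (SE 0.149, limma adjusted p = 0.00135). The 0 h rise was lost under median scaling (adjusted p = 0.604), under cyclic loess (0.312) and without the third untreated (0.0634) or the second MST-312 array (0.0751). Its fall over 24 h with MST-312 was -0.52 (adjusted p = 0.000341), with 0.0537 under median scaling.

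ATP5IF1, the inhibitor that blocks the enzyme from running backwards, was lower by its brightest probe at each time. It read 10.94, 10.98 and 10.94 untreated and 10.11, 10.22 and 10.21 with MST-312 at 0 h, and 10.71, 10.71 and 10.68 and 10.13, 10.27 and 10.19 at 24 h, with no overlap. The change was -0.77 (adjusted p = 8.74e-09), -0.99 (adjusted p = 2.19e-10), -0.62 (adjusted p = 2.45e-07) and -0.51 (adjusted p = 3.06e-06) at the 4 times. With the mean of its probes the 8 and 24 h calls were lost (adjusted p = 0.0786 and 0.101). A second probe at 8 h was higher by 0.33 (adjusted p = 0.0122 over all probes), so the probes of ATP5IF1 disagree. It was also the single gene of the 76 that fell in untreated cells over 24 h, by 0.25 (adjusted p = 0.00448), which was lost under median scaling (0.912) and turned to 0.104 (0.198) with the mean of its probes. For ATP5ME, a small membrane subunit, 3 probes at 4 h gave -0.48, -0.17 and 0.24 (adjusted p = 0.0284, 0.184 and 0.0231 over all probes), so no direction is given for it at that time.

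After release from 0 to 24 h, 52 of the 76 genes rose and 1 fell in untreated cells, with a median of 0.47, when 29% of all genes tested rose, 30.5% fell and 59.5% were called either way, with an all-gene median of -0.02. By complex, 22 of 34 genes rose in complex I, 1 of 3 in II, 7 of 9 in III, 6 of 11 in IV and 15 of 18 in V. The early changes were fewer: 15 rose and 2 fell at 4 h (22.8% and 22.1% of all genes, 44.9% either way), and 27 rose and 4 fell at 8 h (24.8% and 26.4%, 51.2% either way). With MST-312, 39 rose and 6 fell at 24 h, with a median of 0.30, when 24.5% of all genes rose, 26.5% fell and 51% were called either way. Earlier, 11 rose and 4 fell at 4 h (18.1% and 18%, 36.1% either way), and 17 rose and 2 fell at 8 h (18.9% and 22%, 40.9% either way). At 4 h the share of subunits that rose was near or below the background in both treatments, so the 4 h rises are no result about the subunits.

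The rise at 24 h passed in both treatments for 36 genes, in untreated cells alone for 16 and with MST-312 alone for 3 (NDUFA13, NDUFS6 and UQCRC1). The matching shares of all genes tested are not given, so this split is not read as particular to the subunits. Passing in 1 treatment and not in the other does not show a difference, and the interaction itself passed for 20 genes at 24 h: 4 positive, the change under MST-312 being the more upward one (14.5% of all genes tested), and 16 negative, it being the more downward one (15.4%, and 30% either way). The positive ones were NDUFA12, NDUFA13, NDUFS6 and ATP5IF1. The negative ones were 3 in complex I, SDHA in complex II, 5 in complex III (UQCRC2, UQCRH, UQCRHL, UQCRQ and UQCR11), 6 in complex V, and CYCS. They held genes that rose less with MST-312, such as CYCS and ATP5MC1, and genes that fell with it, such as SDHA, UQCRC2 and NDUFV3. The members' share of negative interactions was above the background and that of positive ones below it. Their share called either way, 26.3%, was below the 30% of all genes. Fitted interactions, passed or not, were negative for 55 of the 76 genes and for 5198 of all 10246 genes tested. At 4 h, 1 interaction was positive and 2 were negative, and at 8 h 1 and 3, when 22.7% and 20.1% of all genes were called in either direction. Pairing within each time added the interaction of ATP5PO at 24 h (-0.34, adjusted p = 0.0269) and the 24 h rise of COX4I1 with MST-312 (0.23, adjusted p = 0.0486). The comparisons within a treatment and between treatments share arrays with the interaction, so these counts are not separate evidence.

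**Figure D4:**
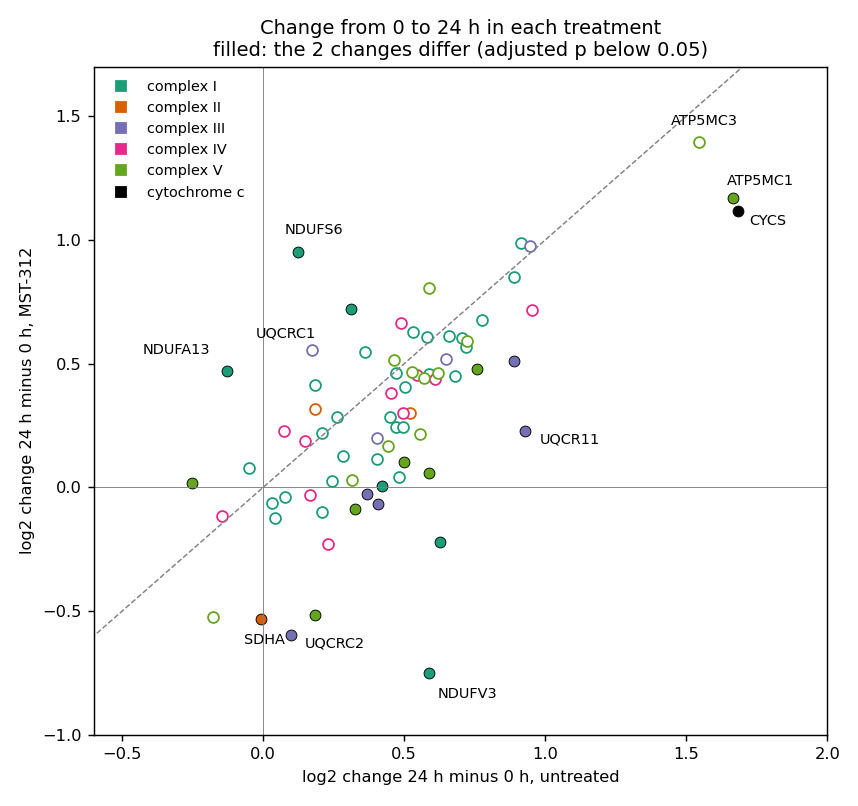
Log2 change from 0 to 24 h of each subunit gene in untreated cells (horizontal) and with MST-312 (vertical); filled points passed the interaction at 24 h and the dashed line marks equal change. Most points lie right of 0 and below the line, with NDUFV3, NDUFA10 and SDHA lower and NDUFS6 and NDUFA13 higher than the line.

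Genes that serve the complexes without being subunits were taken from lists by role. Of 50 assembly factors tested, 12 were higher and 20 lower with MST-312 at 0 h, and 14 and 26 at 24 h. The higher counts were near the shares of all genes (27.6% and 28.9%), and the lower ones stood against 31.7% and 32.9%. The largest falls were in ACAD9, a complex I assembly factor, at -2.90 (adjusted p = 1.62e-12) at 0 h and -3.34 (adjusted p = 1.54e-13) at 24 h, and NDUFAF3, also of complex I, at -2.54 and -2.12. The largest rises were in NDUFAF7 (1.198) and UQCC3 (1.14) at 0 h, and in COX20 (1.02 (adjusted p = 3.86e-10)) and COA8 (1.00 (adjusted p = 0.000123)) at 24 h, of which COX20 and COA8 serve complex IV. Of 12 citric acid cycle genes, 2 were higher and 10 lower at 0 h and 1 and 10 at 24 h. IDH2, the mitochondrial isocitrate dehydrogenase that uses NADP, changed by -3.14 and -2.95, further from 0 than any subunit gene. The next falls were in IDH3G at 0 h (-2.35 (adjusted p = 2.04e-11)) and SUCLG2 at 24 h (-2.54 (adjusted p = 1.3e-13)). SUCLA2, which with SUCLG1 makes the succinyl-CoA ligase that uses ADP, was higher at 0 and 24 h, at 0.60 and 0.19 (adjusted p = 0.0429), but lower at 4 h (-0.22 (adjusted p = 0.0201)). CS, citrate synthase, was higher at 0 h (0.29 (adjusted p = 0.00187)) and lower at 24 h (-0.30 (adjusted p = 0.00159)).

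Of 20 regulators of mitochondrial gene expression and biogenesis, 7 were higher and 4 lower at 0 h and 8 and 6 at 24 h, against the same all-gene shares, so the regulators as a list are not set apart by these counts. POLRMT, the mitochondrial RNA polymerase, was higher, at 1.12 and 1.09 (adjusted p = 6.26e-08). PPRC1, a coactivator of mitochondrial biogenesis, was higher at 0 and 24 h, at 1.18 and 0.55 (adjusted p = 2.53e-10 and 1.02e-05). TWNK, the mitochondrial DNA helicase, was also higher at both times, at 0.90 and 0.74 (adjusted p = 1.09e-06 and 1.27e-05). TFB1M, which methylates mitochondrial ribosomal RNA, was lower, at -0.56 and -0.73 (adjusted p = 0.000125), and so was SSBP1, the mitochondrial single-stranded DNA binding protein, at -0.43 and -0.82 (adjusted p = 1.4e-06). Of 4 other electron carriers to ubiquinone, 1 was lower at 0 h and 3 at 24 h. ETFB, a subunit of the electron transfer flavoprotein, was at -1.64 and -1.32, and ETFDH, its dehydrogenase, at -0.57 at 24 h. NDUFAB1, the acyl carrier protein that is also a complex I subunit but lies outside the symbol rule, changed by -0.07, -0.54, -0.31 and -0.27 at the 4 times. Of the carriers that supply the ATP synthase, SLC25A5, an ADP/ATP carrier, was lower, at -0.44 and -0.60. SLC25A3, the phosphate carrier, was higher at 0 h (0.31 (adjusted p = 0.00613)) and 4 h (0.53 (adjusted p = 3.75e-05)), but did not pass at 8 or 24 h. SLC25A4, another ADP/ATP carrier, did not pass at 0 h (adjusted p = 0.376). SLC25A4 was higher at 4, 8 and 24 h, at 0.43, 0.52 and 0.50 (adjusted p = 0.000907, 0.000122 and 0.000171).

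Markers of cell type moved with the groups too. The summed raw intensity of the 5 detected B cell markers had group means from 127000 at 0 h to 73540 at 24 h untreated, and from 82770 to 51450 with MST-312, with the 4 h group at 85570. The sum does not speak for each marker: with MST-312, 1 was higher and 4 lower at 0 h, 2 higher and 1 lower at 4 and at 8 h, and 3 higher and 2 lower at 24 h, with changes from -1.50 to 2.25 at 24 h. Over 24 h of release all 5 were lower in both treatments. The 2 detected of 6 epithelial and fibroblast markers, EPCAM and COL1A1, summed to 1692 to 2396 untreated and to 2132 to 3799 with MST-312, with KRT8, KRT18, DCN and COL1A2 not detected. With MST-312, 1 of this pair was higher at 0 and 8 h and both were at 4 and 24 h, while over 24 h untreated 1 was higher (2.14) and 1 lower (-0.41). The 2 detected of 6 T cell markers summed to 1276 to 1361 and to 1177 to 1313, and the 3 detected of 6 monocyte markers to 1607 to 2266 and to 1606 to 1673, with CD3D, CD3E, CD8A and CSF1R not detected. With MST-312 both T cell markers were lower at 0 h (-1.42 and -0.65) and 1 was at each later time. Among the monocyte markers 1 was lower at 0, 8 and 24 h, and 1 was higher at 24 h. The part of these marker levels in the changes of the subunit genes was not tested.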

How the data were processed

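Deposited values were an intensity and a detection p-value per probe and array, per the file headers, for 24 Illumina arrays. The authors' processed table, a linear intensity, was an alternative; the sources used here do not give its normalisation. Intensities were corrected and quantile-normalised on the log2 scale (neqc, offset 16, limma 3.58.1, R 4.3.3). Probes with detection p below 0.05 on all 3 arrays of 1 group were kept, the brightest standing for its gene. One limma model with 8 group means gave 13 comparisons, with two-sided p-values adjusted by Benjamini-Hochberg over 10246 genes; statements over all probes used 17882 probes. The procedure was tested on simulated data. "At least" folds use the dimmest detected signal where a group was undetected. Precision is limited by the number of arrays, 3 in each group.

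Fully described genes were the SDH genes, CYCS, CYC1 and, in the other complexes, called members with the largest rise or fall without overlap in comparisons between treatments, 24 h release and 24 h interaction; others by disagreeing probes. Up to 2 rises and 2 falls were named from each other list. Members and lists were chosen with earlier results of these data known. Same-numbered arrays of 1 time and both treatments deviated together in 12 of 12 pairs (correlation 0.110 to 0.378, median 0.216). None of 24 other pairs exceeded 0.1, but deviations within a group cancel out, so these are no separate evidence. Over any 2 groups, 64 of 84 same-numbered pairs exceeded 0.1, against 28 of 168 others, so the link was not confined to 1 time. The numbers were taken as pairs, from the data and the labels' numbers. The effect of pairing within time on calls is given, which leaves comparisons across times unpaired. Promoters came from RefSeq. Alternatives are given below.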

Additional observations from a re-analysis of the deposited data

Results flagged for a closer look

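In 20 subunit genes at 24 h, and in fewer earlier, the change since 0 h differed between the treatments by limma's interaction test. At 4 h these were NDUFA13 (0.44), UQCR11 (-0.97) and UQCRHL (-0.31), and at 8 h CYCS (-0.54), NDUFA13 (0.62), UQCR11 (-0.92) and UQCRHL (-0.33), as MST-312 change minus untreated change on the log2 scale. At 24 h the difference was positive for NDUFS6 (0.83, with 3 of its 4 groups below detection), NDUFA13 (0.60), NDUFA12 (0.41) and ATP5IF1 (0.27). It was negative in complex I for NDUFV3 (-1.34), NDUFA10 (-0.85) and NDUFB3 (-0.41), in complex II for SDHA (-0.53), and in complex III for UQCR11 (-0.70), UQCRC2 (-0.69), UQCRH (-0.48), UQCRHL (-0.40) and UQCRQ (-0.38). In complex V it was negative for ATP5F1E (-0.70), ATP5F1D (-0.53), ATP5MC1 (-0.49), ATP5PD (-0.41), ATP5ME (-0.40) and ATP5MJ (-0.28), and CYCS stood at -0.57. The ATP5IF1 value had an adjusted p of 0.0498 and was lost without any of 19 arrays. Groups of 3 arrays were not tested for outlying arrays.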

How the results depend on the processing

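Of 532 single-gene results 318 were called, and 248 of these kept their call under all 14 settings and without any of the 24 arrays. Reversed values were CYC1 at 4 h under median scaling (-0.0119, adjusted p = 0.951) and, with the mean of a gene's probes, ATP5MC2 between treatments at 8 h (-0.482), ATP5PF at 24 h (-0.200), ATP5IF1 over 24 h untreated (0.104) and the UQCR10 interaction at 24 h (0.352); the cause was not tested. With replicate number as a block, 2 genes were higher and 54 lower between treatments at 24 h, and 2 and 57 with the block within each time. Within each time it gained 2, 4, 6 and 5 calls at 0, 4, 8 and 24 h and lost none. The count of called genes went from 17 to 10 at 4 h untreated with only the arrays of the comparison, and from 15 to 8 at 4 h with MST-312 under median scaling. The 4 h interaction count, 3, was 6 without background correction, with the authors' values, with genes detected on all 24 arrays and with array weights, 7 with a variance trend, 1 with only the arrays of the comparison, 5 with the replicate block, 9 with it within each time, and 1 to 4 without 1 array (1 without the second untreated 0 h, or the first MST-312 0 h or 4 h array). The 8 h interaction count, 4, was 7 with array weights and with the block within each time. Splits that moved were, higher and lower, 9 and 5 at 4 h untreated (cyclic loess), 41 and 0 (median scaling) or 18 and 7 (cyclic loess) at 8 h untreated, and 5 and 3 at 4 h with MST-312 (median scaling).

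Complex medians less the all-gene median are named as moved beyond the SD of a difference between arrays, a tolerance chosen after the values were seen: 35 of 1092 were, and 65 by the SD of 1 array. Between treatments at 0 h, complex I went from -0.317 to -0.403 (cyclic loess) and -0.407 (detected on all arrays), III from 0.0092 to -0.0769 (cyclic loess) and -0.108 (every probe), and IV from -0.221 to -0.339 (cyclic loess). At 4 h, IV went from -0.216 to -0.0976 (no filter), I from -0.332 to -0.415 (detected on all arrays), and III from -0.135 to between -0.163 and -0.0226 without 1 array (the second untreated 4 h array). At 8 h, I went from -0.453 to -0.351 without background correction and with the authors' values, III from -0.204 to -0.113 (median scaling), IV from -0.285 to -0.152 (no filter) and V from -0.216 to -0.323 (every probe). At 24 h, I went from -0.425 to -0.514 (median scaling) and -0.505 (every probe), V from -0.366 to -0.465 (median scaling), and IV from -0.311 to -0.420 (cyclic loess) and -0.165 (no filter). Over 24 h untreated, I went from 0.484 to 0.353 (no background correction), 0.352 (authors' values) and 0.585 (median scaling), III from 0.433 to 0.541 (median scaling), 0.631 (every probe) and 0.661 (mean of probes), IV from 0.478 to 0.600 (median scaling), 0.150 (no filter) and 0.376 to 0.516 without 1 array (the first untreated 24 h array), and V from 0.566 to 0.693 (median scaling). Over 24 h with MST-312, I went from 0.363 to 0.265 (no background correction) and 0.264 (authors' values), IV from 0.319 to 0.418 (median scaling) and 0.113 (no filter), V from 0.346 to 0.233 (detected on all arrays), and III from 0.244 to 0.518 (mean of probes) and 0.171 to 0.357 without 1 array (the third MST-312 24 h array). Signal near background limits NDUFS6, NDUFA5, NDUFC2 and ATP5MC3.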

Other observations

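The dimmer of the UQCRH probes spread widely within groups: it read 9.89, 9.82 and 10.87 on the untreated arrays at 0 h and 10.51, 11.62 and 11.48 at 24 h, against 13.83, 13.87 and 13.78 and 14.34, 14.18 and 14.19 for the brighter probe.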
